A study of Mus musculus with 9 samples.

Results

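The FGF and ERK feedback genes are 10 protein-coding mouse genes that carry the FGF4 signal of embryonic stem (ES) cells and the brakes and read-outs that this signal induces: the ligand Fgf4, the receptors Fgfr1 and Fgfr2, the inhibitors Spry1, Spry2, Spry4, Spred1 and Spred2, and the transcription factors Etv4 and Etv5. They were chosen by symbol, through the gene identifiers of the count table, and all 10 were found among its 20189 rows. Each of the 10 had reads in every library, between 375 and 26047 counts, and all were among the 20143 genes tested. Poly(A) RNA was sequenced from E14 cells, a wild-type line of mouse ES cells. They were starved of threonine (Thr-starved, 3 libraries) or of cysteine (Cys-starved, 3 libraries) for 3 h, or not starved (unstarved, 3 libraries). All cells had been grown on gelatin with serum and the cytokine LIF, and the starvation media described for these cells held dialyzed serum and LIF. The paper's RNA sequencing methods do not name the medium of the unstarved cells. A change of medium, if only starved cells had one, cannot be told apart from starvation. The withheld amino acid was read from the sample titles, since the treatment text names other amino acids. The control columns of the table carry a tag that the starved columns lack and whose meaning is not given in the sources used here, so a difference in origin that this tag might mark cannot be told apart from starvation. The sources say only that there were 3 replicates per condition, so p-values measure the spread between these samples, which may be technical.

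FGF4 is secreted by ES cells and acts on their own FGF receptors, which switch on the RAS, RAF, MEK and ERK kinases in turn. This ERK signal readies ES cells to leave the naive pluripotent state, and in the early embryo FGFR1 and FGFR2 serve the split between epiblast and primitive endoderm. Active ERK also turns on its own inhibitors: Sprouty and SPRED proteins damp the path between receptor and RAF, while the ETS factors ETV4 and ETV5 pass the signal on to further genes.

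Levels are given as CPM, the counts of a gene relative to the library total after TMM scaling, and a gene is called different at an adjusted p of 0.05 or less (edgeR's quasi-likelihood test, Benjamini-Hochberg adjustment over all genes tested). Thr starvation moved the set both ways: 3 genes rose (Fgfr2, Spry2 and Spred1), 6 fell (Fgf4, Spry1, Spry4, Spred2, Etv4 and Etv5) and Fgfr1 was not called, where a correction for GC content and length turned Etv4 upward, left Spred1 not called and called Fgfr1 higher. Thr starvation changed much of the transcriptome, with 63.0% of all genes called, 31.1% higher and 31.9% lower, and 82.3% of the 9756 genes at least as abundant as the lowest of the 10, so the number called is not particular to the set. Cys starvation moved it one way: 8 genes fell, none rose, and Etv4 and Etv5 were not called, where 36.3% of all genes were called, 18.8% lower and 17.5% higher, and 58.1% of genes at that abundance. The median log2 fold change of the 10 was -0.34 without Thr and -0.22 without Cys, beside medians of -0.02 and 0.01 over all genes tested. With a correction for GC content and length the medians of the 10 were -0.24 and -0.26. Called changes of at least 0.5 on the log2 scale numbered 6 of 10 without Thr (32.4% of all genes), 1 without Cys (5.31%) and 3 between the starvations (29.3%), and those of at least 1 numbered 1 (13.2%), 0 (1.47%) and 1 (11.4%), Fgfr2 in both cases. Both starvations were compared with the same unstarved libraries, so both sets of values share the error of these controls.

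Promoter sequences were at hand for 7 of the 10 genes, as 8 windows from RefSeq on GRCm38.p6 of 250 bases before to 50 after the start. The window of Fgfr2, the gene that rose most, is shown beside those of Etv5, which fell most without Thr, and Spry2, which moved in opposite directions in the 2 starvations, because their base composition differed. Capitals mark CpG dinucleotides, and each window is written 5′ to 3′ on the gene's strand. The windows lie at chr7:130266759-130267058 (Fgfr2, minus strand), chr16:22439521-22439820 (the first of 2 listed for Etv5, minus strand) and chr14:105896770-105897069 (Spry2, minus strand).
Fgfr2: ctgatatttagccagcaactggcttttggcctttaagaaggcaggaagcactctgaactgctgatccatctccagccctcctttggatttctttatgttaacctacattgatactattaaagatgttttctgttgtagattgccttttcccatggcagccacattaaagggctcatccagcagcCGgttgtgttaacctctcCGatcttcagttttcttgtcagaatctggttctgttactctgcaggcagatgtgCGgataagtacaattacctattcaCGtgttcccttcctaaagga
Etv5: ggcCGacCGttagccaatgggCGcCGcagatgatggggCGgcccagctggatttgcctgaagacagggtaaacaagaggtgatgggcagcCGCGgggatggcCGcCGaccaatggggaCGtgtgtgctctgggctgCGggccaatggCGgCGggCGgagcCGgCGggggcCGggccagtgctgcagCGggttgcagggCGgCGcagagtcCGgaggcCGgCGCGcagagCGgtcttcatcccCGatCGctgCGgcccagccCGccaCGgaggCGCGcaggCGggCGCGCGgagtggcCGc
Spry2: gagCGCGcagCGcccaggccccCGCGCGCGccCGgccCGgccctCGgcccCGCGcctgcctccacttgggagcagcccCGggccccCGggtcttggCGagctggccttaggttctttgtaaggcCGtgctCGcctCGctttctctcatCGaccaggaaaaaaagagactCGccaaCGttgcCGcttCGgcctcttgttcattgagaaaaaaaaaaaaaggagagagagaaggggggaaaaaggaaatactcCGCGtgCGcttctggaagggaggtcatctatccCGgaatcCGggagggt

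The Fgfr2 window held 4 CpG and 43.7% GC, the Etv5 window 37 CpG and 74.0% GC, and the Spry2 window 28 CpG and 62.7% GC, where the median of 32851 mouse promoters was 7 CpG and 52.7% GC. The other 5 windows of the set held 17 to 40 CpG, so the Fgfr2 window alone was below the median of all promoters. RefSeq lists this start for Fgfr2, and other starts of the gene were not examined. None of 5 motifs searched on both strands was found in any of the 8 windows: the ETS motif CCGGAAGT, which 3.89% of all promoters hold, the cyclic AMP element TGACGTCA (1.79%), the AP-1 motif TGANTCA (7.81%), the ATF4-CHOP motif TGATGNAA (3.97%) and the STAT motif TTCCNGGAA (1.15%).

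Fgf4 (ENSMUSG00000050917, chr7:144847367-144865243, plus strand, GRCm38), the ligand of the loop, fell in both starvations. Its level was 146, 147 and 148 CPM in unstarved libraries, 114, 114 and 111 CPM in Cys-starved and 100.1, 99.7 and 104 CPM in Thr-starved libraries. The 3 groups did not overlap, and the order from unstarved to Cys-starved to Thr-starved held in every library. Fgf4 was 1.45-fold lower without Thr (log2 fold change -0.54, SE 0.027, adjusted p = 3.8e-14) and 1.30-fold lower without Cys (log2 fold change -0.38, SE 0.026, adjusted p = 1.6e-10). The direct comparison placed Thr-starved below Cys-starved cells as well (log2 fold change -0.16, adjusted p = 1.9e-05).

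**Figure D1:**
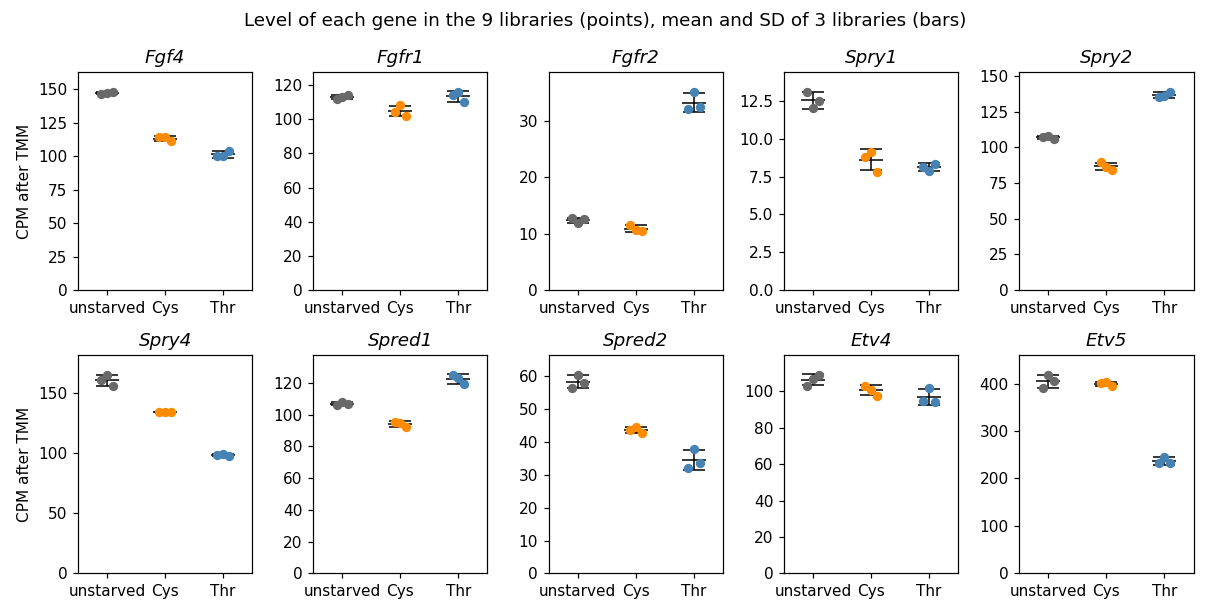
Level of each of the 10 genes (vertical axes, CPM after TMM scaling, each from 0) in unstarved, Cys-starved and Thr-starved ES cells. Points are libraries, and bars give the mean and SD of 3 libraries. Fgfr2 stands at 32.0 to 35.1 CPM in Thr-starved libraries and at 10.5 to 12.7 CPM in the other 6, and Etv5 at 232 to 246 CPM against 391 to 418 CPM.

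The 2 receptor genes parted. Fgfr2 (ENSMUSG00000030849, chr7:130162451-133123350, minus strand), which encodes an FGF receptor of epithelial and primitive endoderm cells, rose from 12.7, 11.9 and 12.6 CPM in unstarved libraries to 32.0, 35.1 and 32.4 CPM without Thr, while Cys-starved libraries held 11.6, 10.6 and 10.5 CPM. All Thr-starved libraries were far above the other 6. The rise was 2.67-fold (log2 fold change 1.42, SE 0.054, adjusted p = 4.3e-16). Against Cys-starved cells Fgfr2 was 3.05-fold higher (log2 fold change 1.61, SE 0.055, adjusted p = 7.8e-17). Its small fall without Cys (log2 fold change -0.19, SE 0.06, adjusted p = 0.016) depended on single libraries: without Cys-starved replicate 2 or 3, or without unstarved replicate 1 or 3, the adjusted p was 0.063, 0.066, 0.058 and 0.050, all above the threshold.

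Primitive endoderm cells express Fgfr2. The summed level of 8 primitive endoderm markers was 169.9 to 195 CPM in unstarved, 217 to 241 CPM in Cys-starved and 244 to 269 CPM in Thr-starved libraries. Both Fgfr2 and this sum were highest without Thr. Without Cys they parted, with the sum above its unstarved range and Fgfr2 slightly below its own. That sum was mostly Lama1, at 161 to 262 CPM over the 9 libraries, whereas the other 7 markers were each at or below 4.19 CPM in every library. Those 7 had log2 fold changes of either sign without Thr, with Sox17 at a log2 fold change of 1.20, Pdgfra at 0.44, Gata4 at 0.36, Foxq1 at 0.16 and Gata6 at 0.12, and Sox7 at -1.69 and Dab2 at -0.35. The part of such cells in the Fgfr2 result was not tested, and in bulk RNA fewer cells of a type and less RNA per cell cannot be told apart. The Fgfr2 gene model shares 3.04% of its exon bases with Ctbp2 on the same strand, and Ctbp2 stayed between means of 342 and 351 CPM and was called in no comparison (adjusted p = 0.20, 0.40 and 0.79).

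Fgfr1 (ENSMUSG00000031565, chr8:25513654-25575718, plus strand), the main FGF receptor of ES cells, was at 112, 113 and 114 CPM in unstarved, 104, 108 and 102 CPM in Cys-starved and 114, 116 and 109.8 CPM in Thr-starved libraries. Thr-starved and unstarved libraries overlapped, and the difference had a log2 fold change of 0.00 with a 95% interval from -0.06 to 0.06. With a correction for GC content and length it was 0.16 (adjusted p = 3.7e-05). Cys-starved libraries lay below both other groups (log2 fold change against unstarved -0.11, SE 0.029, adjusted p = 0.0041). Per kb of merged exons, the scale used here to compare genes, Fgfr1 exceeded Fgfr2 by a ratio of 9.53 ± 0.378 (SD, n = 3) in unstarved cells, 10.1 ± 0.665 in Cys-starved cells and 3.57 ± 0.139 in Thr-starved cells. Fgfr1 thus remained the more abundant receptor in all 9 libraries, where the ratio was never below 3.45.

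The 3 Sprouty genes, inhibitors of receptor signaling that ERK itself induces, each followed a different course. Spry2 (ENSMUSG00000022114, chr14:105891947-105896819, minus strand) held 107, 108 and 106 CPM in unstarved libraries, 89.5, 86.4 and 84.1 CPM without Cys and 135, 136 and 139 CPM without Thr. The groups did not overlap, with unstarved libraries between the starved groups. Spry2 rose 1.28-fold without Thr (log2 fold change 0.36, SE 0.027, adjusted p = 1.0e-10) and was 1.23-fold lower without Cys (log2 fold change -0.30, SE 0.028, adjusted p = 1.4e-08). In the direct comparison Thr-starved cells were 1.58-fold higher (log2 fold change 0.66, SE 0.028, adjusted p = 2.8e-15).

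Spry4 (ENSMUSG00000024427, chr18:38586247-38601415, minus strand), often read as a gauge of FGF signaling in ES cells, went down in steps. It stood at 161, 165 and 156 CPM in unstarved libraries, at 134 CPM in each Cys-starved library and at 98.4, 99.2 and 98.0 CPM in Thr-starved libraries. It was 1.63-fold lower without Thr (log2 fold change -0.70, SE 0.026, adjusted p = 2.8e-16) and 1.20-fold lower without Cys (log2 fold change -0.26, SE 0.026, adjusted p = 4.7e-08). Spry1 (ENSMUSG00000037211, chr3:37639947-37644598, plus strand), the least abundant of these 3 genes, fell to about the same level in both starvations. Its libraries held 13.1, 12.0 and 12.5 CPM when unstarved, 8.82, 9.15 and 7.83 CPM without Cys and 8.16, 7.86 and 8.36 CPM without Thr. The starved groups overlapped each other and lay below the unstarved group, with log2 fold changes of -0.62 (SE 0.071, adjusted p = 6.9e-08) without Thr and -0.54 (SE 0.07, adjusted p = 1.8e-06) without Cys. The direct difference of -0.08 had a 95% interval from -0.23 to 0.07. An annotated transcript of unknown kind on the other strand, Gm42922, covers 24.4% of the Spry1 exon bases. Its own mean level was 0.0413 CPM in unstarved, 0.143 CPM in Cys-starved and 0.171 CPM in Thr-starved cells, called higher in both starvations (log2 fold changes 1.78 without Cys and 2.03 without Thr, adjusted p = 0.043 and 0.011), and its part in the Spry1 counts was not tested.

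As sums per kb, the 3 Sprouty genes gave 89.3 ± 1.42 CPM per kb (SD, n = 3) in unstarved cells, 72.7 ± 1.42 in Cys-starved cells and 89.0 ± 0.827 in Thr-starved cells. The Thr-starved and unstarved libraries overlapped in this sum although each of the 3 genes was called different between them. The share of Spry2 in the sum was 57.3% ± 0.392 in unstarved, 57.1% ± 0.706 in Cys-starved and 73.6% ± 0.280 in Thr-starved cells, while the share of Spry4 was 37.8% ± 0.530, 38.8% ± 0.821 and 23.3% ± 0.332. Without Cys the sum was smaller with the shares of Spry2 and Spry4 close to those of unstarved cells, and without Thr the sum was close to that of unstarved cells with a different makeup. These sums and shares are given on the TMM scale only. Over the alternative fits without Thr, log2 fold changes ran from 0.23 to 0.37 for Spry2, -0.73 to -0.64 for Spry4 and -0.65 to -0.45 for Spry1.

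The genes of the SPRED proteins, membrane-bound relatives of Sprouty that hold back RAS and RAF, showed the same contrast between members. Spred1 (ENSMUSG00000027351, chr2:117121374-117182279, plus strand) held 106, 108 and 107 CPM in unstarved libraries, 95.5, 95.0 and 92.1 CPM without Cys and 125, 123 and 119 CPM without Thr, with no overlap between groups. It rose 1.14-fold without Thr (log2 fold change 0.19, SE 0.028, adjusted p = 2.4e-06) and fell without Cys (log2 fold change -0.18, SE 0.028, adjusted p = 1.6e-05). Its transcripts had the lowest GC content of the set, 41.2%, and with a correction for GC content and length its log2 fold change without Thr was -0.02 (adjusted p = 0.49). Spred2 (ENSMUSG00000045671, chr11:19924375-20024026, plus strand) went down without either amino acid, from 56.5, 60.4 and 58.0 CPM to 43.6, 44.5 and 42.7 CPM without Cys and to 32.2, 37.8 and 33.6 CPM without Thr. The 3 groups did not overlap, and Spred2 was 1.69-fold lower without Thr (log2 fold change -0.76, SE 0.046, adjusted p = 1.3e-12) and 1.34-fold lower without Cys (log2 fold change -0.42, SE 0.044, adjusted p = 1.1e-07). Spred1 made up 55.6% ± 0.550 of the pair's summed CPM per kb in unstarved cells, 59.5% ± 0.331 in Cys-starved cells and 70.7% ± 1.84 in Thr-starved cells.

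**Figure D2:**
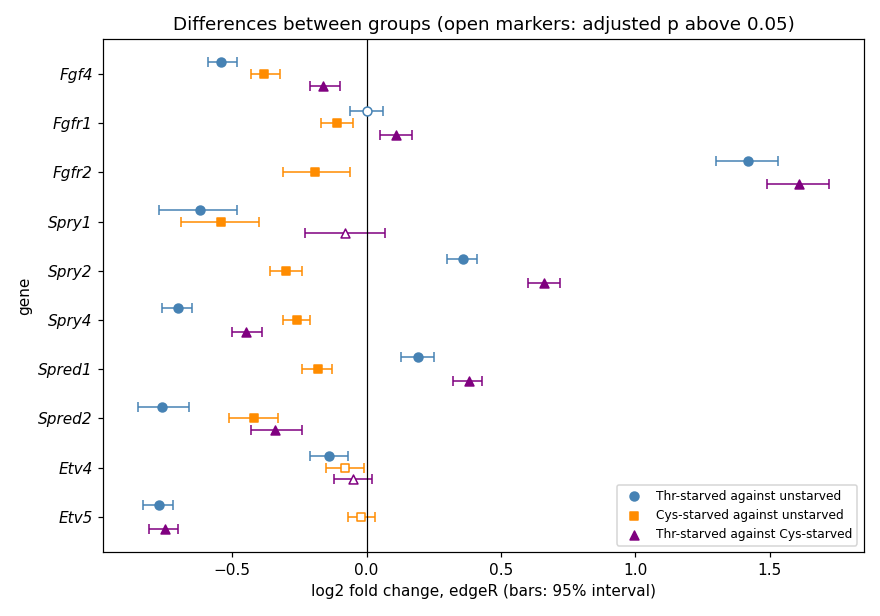
Log2 fold change of each gene (horizontal axis) in Thr-starved against unstarved (circles), Cys-starved against unstarved (squares) and Thr-starved against Cys-starved cells (triangles), with 95% intervals from edgeR, and open markers where the adjusted p was above 0.05. Circles lie on both sides of 0, from -0.77 for Etv5 to 1.42 for Fgfr2, whereas every square is below 0.

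Etv5 and Etv4, ETS factors of the PEA3 group that ERK signaling induces, are taken in turn. Etv5 (ENSMUSG00000013089, chr16:22381309-22439719, minus strand), the most abundant transcript of the set per kb in unstarved cells, held 391, 418 and 406 CPM there, 401, 403 and 394 CPM without Cys and 233, 246 and 232 CPM without Thr. Cys-starved libraries lay within the range of the unstarved ones, and Thr-starved libraries were far below both. Etv5 was 1.71-fold lower without Thr (log2 fold change -0.77, SE 0.026, adjusted p = 5.0e-17), the deepest fall of the set. Without Cys its log2 fold change was -0.02, with a 95% interval from -0.07 to 0.03, and in the direct comparison Thr-starved cells were 1.68-fold lower (log2 fold change -0.75, SE 0.026, adjusted p = 1.1e-16).

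Etv4 (ENSMUSG00000017724, chr11:101769742-101785371, minus strand) held 103, 107 and 109 CPM in unstarved, 103, 101 and 97.6 CPM in Cys-starved and 94.6, 102 and 94.0 CPM in Thr-starved libraries. The highest library of each starved group was just below the lowest unstarved one. The Thr-starved libraries were below the unstarved ones by a small margin (log2 fold change -0.14, SE 0.034, adjusted p = 0.0011). That direction turned with a correction for GC content and length, to a log2 fold change of 0.13 (adjusted p = 0.00079), and Etv4 had the highest GC content of the set, 58.7%. Without Cys the log2 fold change was -0.08 with a 95% interval from -0.15 to -0.01 before adjustment (adjusted p = 0.056), and it was called lower in 11 of 20 alternative fits. Etv5 made up 74.2% ± 0.425 of the summed CPM per kb of the 2 genes in unstarved cells, 75.0% ± 0.376 in Cys-starved and 64.9% ± 0.333 in Thr-starved cells.

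Set side by side, Fgf4, Spry1, Spry4 and Spred2 were lower in both starvations, and Fgfr2, Spry2 and, unless corrected for GC content and length, Spred1 were higher without Thr and lower without Cys. The small fall of Fgfr2 without Cys depended on single libraries. In the direct comparison Fgfr1, Fgfr2, Spry2 and Spred1 were higher in Thr-starved than in Cys-starved cells, and Fgf4, Spry4, Spred2 and Etv5 were lower, where 62.0% of all genes were called, 30.4% higher and 31.6% lower. Spry1 and Etv4 were not called. The libraries of Thr-starved and unstarved cells did not overlap for 9 of the 10 genes (66.5% of all genes), those of Cys-starved and unstarved cells for 9 (46.4%), all of them lower without Cys, and those of the 2 starvations for 8 (65.8%).

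**Figure D3:**
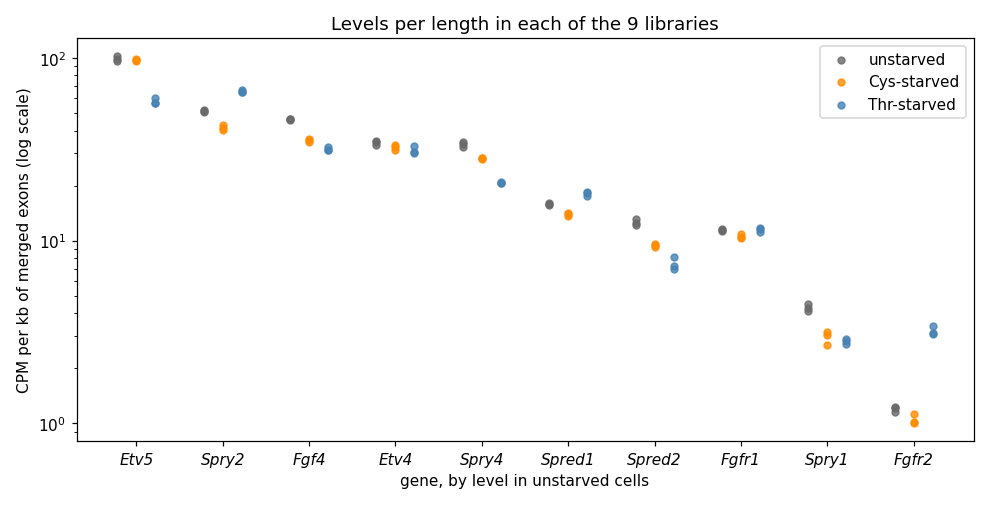
Level of each gene per kb of merged exons (vertical axis, log scale) in every library, with genes ordered by their mean in unstarved cells and colors marking the 3 groups. Etv5 is highest in unstarved and Cys-starved libraries, and Spry2 is above it in Thr-starved libraries.

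Per kb of merged exons, mean levels in unstarved cells ran from 98.7 CPM per kb for Etv5 through Spry2 (51.2), Fgf4 (46.0), Etv4 (34.3), Spry4 (33.8), Spred1 (15.8), Spred2 (12.6), Fgfr1 (11.4) and Spry1 (4.32) down to 1.20 CPM per kb for Fgfr2. Etv4 and Spry4 overlapped and were not ordered by their libraries, and all other neighbors were apart. Cys starvation kept this order except that Fgfr1, at 10.6 CPM per kb, stood above Spred2, at 9.44. Thr starvation put Spry2 first, at 65.5 ± 0.858 CPM per kb (SD, n = 3), above Etv5 at 57.8 ± 1.88, and Fgfr2, at 3.21 ± 0.163, above Spry1 at 2.80 ± 0.0856. Fgf4, at 31.7 CPM per kb, and Etv4, at 31.2, overlapped in Thr-starved libraries.

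The genes with the most similar profiles over the 9 libraries were sought among 11400 other genes whose mean reached 5 CPM, by the root mean square difference of centered log2(CPM + 0.5), which is a description of these libraries. For Fgfr2 these were Zic5, at a distance of 0.063, and Mdm2, at 0.070, both of which rose without Thr (log2 fold changes of 1.51 and 1.41). For Spry2 they were Amd1 (0.025) and Matr3 (0.026), for Spry4 Acly (0.020) and Hspbap1 (0.026), for Etv5 Zfp64 (0.022) and Pik3r2 (0.032), and for Fgf4 Ctsz (0.027) and Akap1 (0.028). For the others the nearest were Snrpb2 for Fgfr1 (0.023), Cd9 for Spry1 (0.056), Cdk1 for Spred1 (0.027), Fam169a for Spred2 (0.058) and Kat8 for Etv4 (0.027).

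The rest of the pathway was taken from 6 lists of 109 genes, of which 102 were tested. Without Thr 36 rose, 42 fell and 24 were not called, where 31.1% of all genes rose and 31.9% fell. Without Cys 14 rose, 21 fell and 67 were not called, where 17.5% of all genes rose and 18.8% fell. Among genes at least as abundant as the lowest of the 10, 82.3% were called without Thr and 58.1% without Cys.

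Among other FGF ligands, 2 rose and 6 fell of 15 tested without Thr, where 63.0% of all genes were called. Fgf17, the most abundant of those named, went from 39.6 to 9.55 CPM (log2 fold change -2.05, SE 0.061, adjusted p = 4.4e-18), Fgf15 fell from 4.18 to 0.437 CPM (log2 fold change -3.21, SE 0.18, adjusted p = 2.4e-13), and Fgf10 rose from 1.95 to 5.95 CPM (log2 fold change 1.61, SE 0.13, adjusted p = 2.3e-10). Without Cys 1 rose and 3 fell, among them Fgf15 (log2 fold change -0.68, adjusted p = 0.00023). Of all genes 36.3% were called without Cys, and both shares also stand beside the lists that follow. Of other receptors and co-receptors, 3 rose and 4 fell of 12 without Thr, and 1 rose and 3 fell without Cys, the riser being Flrt3 (log2 fold change 0.49, adjusted p = 7.4e-05). The glypican Gpc4, which carries heparan sulfate, rose without Thr (log2 fold change 0.82, adjusted p = 4.7e-12), and the syndecan Sdc1 fell without Thr and without Cys (log2 fold changes -0.74 and -0.35, adjusted p = 1.7e-12 and 1.1e-06). The heparan sulfate enzymes, which make and trim the sugar chains that FGFs bind, gave 7 higher and 5 lower of 14 without Thr, with Sulf1 highest (log2 fold change 0.79, adjusted p = 2.2e-16) and Extl3 lowest (-0.74, adjusted p = 1.7e-14), and 1 higher and 2 lower without Cys, B4galt7 (0.30, adjusted p = 0.0019) and Ext1 (-0.30, adjusted p = 1.3e-07) at the ends.

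Inside the cell, the adaptors and exchange factors that join receptors to RAS gave 7 higher and 7 lower of 17 without Thr (82.3% of genes as abundant as the 10 were called), from Frs3 (log2 fold change 1.13, adjusted p = 3.9e-11) to Shc1 (-0.63, adjusted p = 8.0e-15), and 3 higher and 2 lower without Cys, where Sos2 rose (0.41, adjusted p = 0.00067) and Gab1 fell (-0.14, adjusted p = 3.8e-05). In the RAS-RAF-MEK-ERK cascade, 7 rose and 14 fell of 23 without Thr, beside 31.1% and 31.9% of all genes. Of genes as abundant as the 10, 82.3% were called in either direction. With GC content and length offsets 7 cascade genes rose and 11 fell. Araf rose (log2 fold change 0.89, adjusted p = 1.2e-15) and the scaffold Ksr1 fell (-1.81, adjusted p = 3.0e-14), as did Map2k1, which encodes MEK1 (-0.82, adjusted p = 1.3e-15). Without Cys 4 of the cascade genes rose and 5 fell, from Rps6ka2 (0.38, adjusted p = 1.5e-09) to Hras (-0.30, adjusted p = 6.1e-07). Of all genes 36.3% were called without Cys.

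The 21 other ERK feedback and target genes split without Thr into 10 higher, 6 lower and 5 not called, where 63.0% of all genes, and 82.3% of genes as abundant as the 10, were called. Dusp6 and Dusp4, phosphatases that inactivate ERK, rose from 91.3 to 162 CPM and from 32.8 to 58.1 CPM (log2 fold change 0.83 for each, adjusted p = 1.2e-16 and 1.8e-13), and Spred3 rose as well (0.79, adjusted p = 8.3e-09). Il17rd, an inhibitor of FGF receptors, fell (-0.74, adjusted p = 2.0e-12) together with Myc (-1.34, adjusted p = 8.8e-19) and the cyclin gene Ccnd1 (-1.88, adjusted p = 1.7e-21), while Lif rose (1.64, adjusted p = 1.6e-12). Also higher were Rnd3 (1.56, adjusted p = 3.5e-20), Fos (1.13, adjusted p = 2.4e-07) and Nr0b1 (0.68, adjusted p = 3.3e-15). So were Ier2 (0.56, adjusted p = 4.9e-15), Egr1 (0.46, adjusted p = 1.3e-07) and, below 1 CPM, Egr2 (0.92, adjusted p = 0.03). Ier3 was lower (-0.91, adjusted p = 3.4e-07). Over all Sprouty, SPRED and DUSP genes of the set and this list, with Il17rd, the directions without Thr were mixed: Spry2, Spred3, Dusp4, Dusp6 and, unless corrected for GC content and length, Spred1 were higher, Spry1, Spry4, Spred2, Dusp5 (-0.31, adjusted p = 0.0011), Dusp14 (-0.40, adjusted p = 0.02) and Il17rd were lower, and Spry3 (-0.26, adjusted p = 0.66) and Dusp9 (0.02, adjusted p = 0.7) were not called. Without Cys 4 of the 21 rose and 6 fell, where 36.3% of all genes were called. Among them were Dusp14 (0.74, adjusted p = 9.0e-05) and Ier3 (-0.48, adjusted p = 0.0013), with Dusp6 higher by 0.12 (adjusted p = 0.0022) and Dusp4 lower (-0.15, adjusted p = 0.016).

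**Figure D4:**
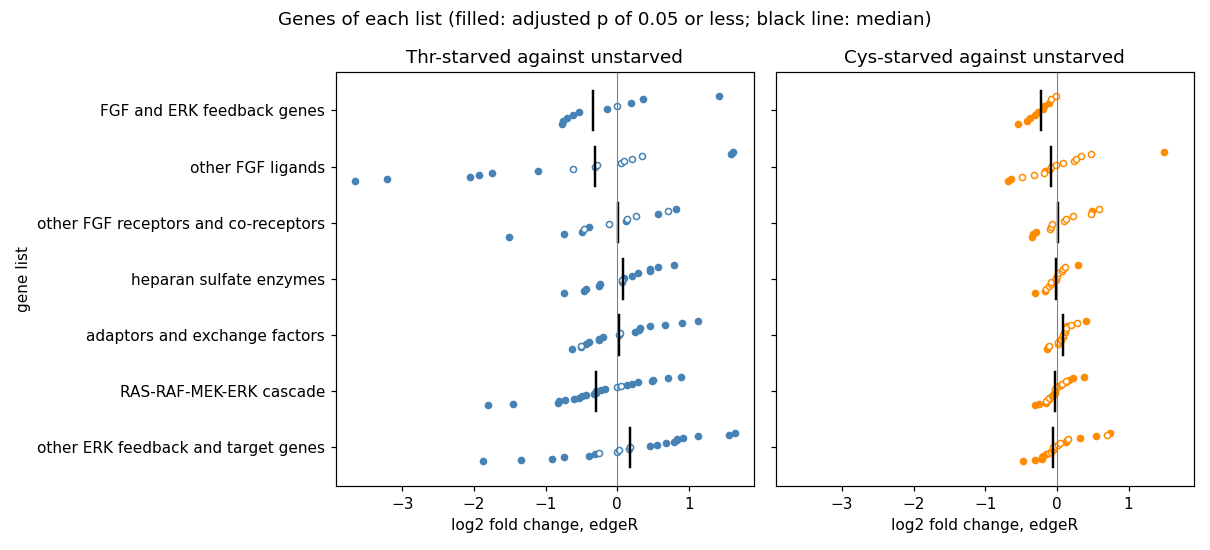
Log2 fold change (horizontal axis) of every tested gene of the set and of 6 lists of pathway genes, without Thr on the left and without Cys on the right, filled where the adjusted p was 0.05 or less, with the median of each list as a black line. The 10 feedback genes have medians of -0.34 and -0.22, and the other ERK feedback and target genes 0.18 and -0.05.

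Libraries held 48763102 to 74962733 counts. All 10 ES cell markers were measured, and their summed level was 4502 to 4557 CPM in unstarved, 4288 to 4329 CPM in Cys-starved and 4462 to 4549 CPM in Thr-starved libraries. Single markers differed in sign without Thr, with log2 fold changes from -1.69 for Utf1, -0.65 for Tdh and -0.42 for Nanog to 0.43 for Esrrb, 0.44 for Sox2 and 0.85 for Klf4. Formative or primed epiblast markers, of which 7 of 8 were measured, summed to 245 to 253, 188 to 197 and 154 to 158 CPM in that order of groups, and trophectoderm markers (7 of 8) to 130.4 to 138, 124 to 129 and 134 to 135 CPM. Fibroblast markers (5 of 8) summed to 30.3 to 31.4, 24.1 to 28.4 and 19.1 to 21.4 CPM. The formative sum was mostly Dnmt3b, with means of 212, 162 and 129.7 CPM. The other measured markers of this list went both ways without Thr. Pou3f1, Lef1, T and Fgf5, the last below 1 CPM, had log2 fold changes of -2.15, -2.59, -1.56 and -3.66. Otx2 and Foxa2 had log2 fold changes of 0.73 and 1.73, against the direction of the formative sum. That sum fell in the same order of groups as Fgf4, Spry4 and Spred2, and its part in their falls was not tested.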

How the data were processed

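RNA of 9 E14 libraries was sequenced from both ends on poly(A)-selected, strand-marking libraries. The authors mapped the reads to GRCm38 with STAR 2.7.4a, used HTSeq for gene counts, which were deposited as raw counts. The authors also deposited a signal table, the same counts divided by DESeq2 size factors, used here only as an alternative scaling. How the counting treated strand and overlapping genes is not given in the sources used here. Of 28226 values from 1 to 20, 67.8% were even, so counts were also fitted halved.

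Counts of the 20143 genes with at least 1 count were fitted in R 4.3.3 with edgeR 4.0.16 (TMM, quasi-likelihood F test, group only, all 9 libraries, Benjamini-Hochberg at 0.05, common coefficient of variation 3.53%). The method was tested on simulated data. GENCODE M21 (GRCm38) gave symbols, exon lengths and GC content. SE is the absolute log2 fold change divided by the square root of F. Replicates differed beyond sampling noise at high counts. Alternatives were DESeq2 1.42.0, RLE and deposited size factors, filterByExpr, at least 10 counts in every library, no filter, only the 2 groups compared, a replicate block, GC and length offsets, thinning to the smallest library, an adjusted p of 0.01, an absolute log2 fold change of 1 and leaving out each library.

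The members and gene lists were chosen with earlier results of these data known. All 10 members are named. From each pathway list the called gene of at least 1 mean CPM with the largest rise and fall is named. Fgf17, Map2k1, Dusp4, Dusp5, Dusp6, Dusp9, Dusp14 without Thr, Spry3, Spred3, Il17rd and Myc were added after their values were seen. The same holds for Rnd3, Fos, Nr0b1, Ier2, Egr1, Egr2 and Ier3 without Thr. Protein features of the members were not analysed here.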

Additional observations from a re-analysis of the deposited data

How the results depend on the processing

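The counts of called members stayed within 1.5 times their value under every alternative but a minimum absolute change of 1 (log2), where 1 gene was higher and 0 were lower without Thr, 0 were lower without Cys, and 1 was higher and 0 were lower in Thr-starved against Cys-starved cells. Leaving out each library gave 3 higher and 6 lower without Thr, 0 higher and 7 to 9 lower without Cys, and 4 higher and 4 to 5 lower between the starvations. With GC content and length offsets Etv4 reversed to 0.13 without Thr and 0.21 against Cys-starved cells, Spred1 to -0.02 without Thr and Spry1 to 0.09 against Cys-starved cells, and Fgfr1 was called without Thr (0.16, adjusted p = 3.7e-05). The cause was not tested. Fgfr1 without Thr was -0.0032 with thinned counts and between -0.01 and 0.02 with 1 library left out, and Etv5 without Cys was between -0.05 and 0.0013, and neither was called in these fits. Same-numbered libraries of different groups correlated between -0.244 and 0.106 in their deviations from the group mean. Differently numbered pairs were not compared, so this does not settle whether same-numbered libraries were handled together. The replicate block gave 3 higher and 6 lower, 0 and 8, and 4 and 4 members.

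Among the pathway lists, 46 counts moved by over 1.5 times, mostly with the fold threshold. Without Cys, 11 cascade genes and 5 heparan sulfate enzymes were lower with the deposited size factors and 8 and 4 with the GC and length offsets, against 5 and 2.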
